A study of Mus musculus with 2 samples.

Results

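The distal ends of the mouse autosomes were described through 17441 ChIP-seq peaks, those of library 1 whose summit lay in the last 3 Mb of chromosomes 1 to 19. The end of each chromosome was taken as the end of its last peak in the list. The 19 windows spanned 57 Mb, 2.37% of the autosomal sequence between first and last peaks, and held 3.02% of the 576675 autosomal peaks of the library. They made up 2.98% of the 585072 peaks of both lists. Both libraries were made from E10.5 mouse embryo heads that had been snap-frozen, by immunoprecipitating chromatin through green fluorescent protein (GFP). The series addresses functions of the core histone H3.2 in the eye. Apart from the title, the labels of both libraries are the same, and they give no strain, genotype, sex, control or carrier of the GFP tag. Nothing in them says whether the libraries came from separate embryos. Library 2 held 348 peaks, of which 11 lay in the windows, so every value below is from library 1 unless it is said to be from library 2.

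Mouse autosomes carry their centromere close to one tip, so that a single long arm runs to the distal telomere, where TTAGGG repeats cap the DNA. The stretch next to the repeats, the subtelomere, is often rich in genes and in GC, and it can also hold recently duplicated gene families. Histone H3.2 is made mainly in S phase and is laid down behind replication forks, in contrast to H3.3, which is exchanged throughout the cell cycle. Library 2, under the same labels, holds too few peaks to serve as a replicate here, and 19 chromosome ends of 1 library are not replicates of a condition. Differences are therefore given as sizes with 95% intervals that cover counting error only (exact Poisson for densities, conditional binomial for density ratios, Clopper-Pearson for shares), without a test.

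The files give positions and no bases, so the sequences shown are RefSeq promoters (build GRCm38.p6, from 250 bases before to 50 bases after a transcription start). Shown are the 4 promoters at chromosome ends that held the summits of highest fold, because they place the peaks on the sequence. Capitals mark the summit and up to 10 bases on either side.
Gtsf1: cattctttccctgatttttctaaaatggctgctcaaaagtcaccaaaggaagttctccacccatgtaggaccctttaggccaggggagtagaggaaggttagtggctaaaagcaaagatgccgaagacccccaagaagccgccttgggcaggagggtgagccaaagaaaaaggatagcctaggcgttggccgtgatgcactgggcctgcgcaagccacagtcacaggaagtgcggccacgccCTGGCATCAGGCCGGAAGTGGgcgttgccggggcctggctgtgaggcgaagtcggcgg
Ccdc172: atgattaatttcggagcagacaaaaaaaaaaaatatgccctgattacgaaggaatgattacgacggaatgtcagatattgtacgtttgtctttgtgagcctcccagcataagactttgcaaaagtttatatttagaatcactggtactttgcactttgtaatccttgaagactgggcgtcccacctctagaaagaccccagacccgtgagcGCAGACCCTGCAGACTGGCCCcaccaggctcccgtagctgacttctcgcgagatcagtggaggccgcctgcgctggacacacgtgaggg
Amhr2: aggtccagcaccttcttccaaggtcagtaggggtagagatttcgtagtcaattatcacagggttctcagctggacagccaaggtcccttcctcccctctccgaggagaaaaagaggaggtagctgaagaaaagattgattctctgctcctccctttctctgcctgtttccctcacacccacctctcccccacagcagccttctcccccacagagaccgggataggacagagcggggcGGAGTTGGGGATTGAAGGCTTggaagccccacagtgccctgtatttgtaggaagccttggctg
Mrgbp: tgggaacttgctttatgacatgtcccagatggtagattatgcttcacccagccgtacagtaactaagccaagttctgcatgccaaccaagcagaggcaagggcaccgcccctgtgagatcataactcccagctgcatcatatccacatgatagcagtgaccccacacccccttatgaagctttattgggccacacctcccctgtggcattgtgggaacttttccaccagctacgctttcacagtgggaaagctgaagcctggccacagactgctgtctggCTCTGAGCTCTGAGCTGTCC
The promoter of Gtsf1, a gene of transposon silencing in germ cells, lies on the minus strand at chr15:103430378-103430677. Its summit fell 2 bases past the transcription start, in a peak from 103430171 to 103430551 with a fold enrichment of 8.89 over background. The summit pileup, the number of extended reads stacked there, was 32 (21.9 to 45.2). The Ccdc172 promoter, at chr19:58511735-58512034 on the plus strand, had its summit 29 bases before the start, with a fold of 6.76. Amhr2, the receptor for anti-Müllerian hormone, has its promoter at chr15:102445117-102445416 on the plus strand, and the fold there was 5.92 with a pileup of 21 (13.0 to 32.1). Mrgbp, which encodes a subunit of a histone acetyltransferase complex, has its promoter at chr2:180580972-180581271 on the plus strand, and the fold was 5.66. Their GC contents ran from 48.7% (Ccdc172) to 57.7% (Gtsf1), with 14 and 13 CpG dinucleotides, against 5 in the Amhr2 and 3 in the Mrgbp promoter.

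Peak density at the ends was higher than elsewhere in the sum over chromosomes but differed widely between them. The 19 windows held 306 peaks per Mb (301 to 311), and the rest of the same autosomes held 238 (238 to 239), a ratio of 1.28 (1.26 to 1.30). On 10 of 19 autosomes the end window was denser than the rest of its chromosome, and on 9 it was sparser. Of the other 774 windows of 3 Mb tiled along the autosomes, 39.5% were denser than the rest of their chromosome. The median ratio over chromosomes was 1.02, with a range from 0.273 to 2.86. Intervals lay wholly above 1 on 9 chromosomes and wholly below it on 8. Leaving out chromosome 4 brought the ratio of the sums to 1.19, and leaving out chromosome 17 raised it to 1.35.

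**Figure D1:**
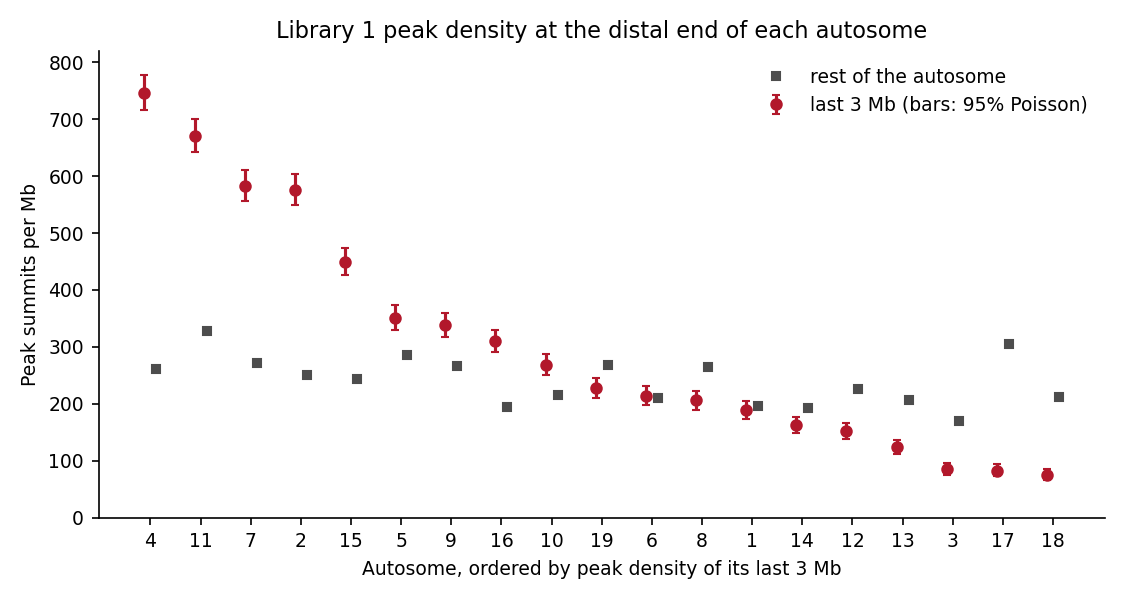
Peak summits per Mb in the last 3 Mb of each autosome (red points, bars are 95% exact Poisson intervals) and in the rest of the same autosome (grey squares). The ends ran from 746 on chromosome 4 to 75.7 on chromosome 18, and the much longer rests lie between 171 and 327.

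The densest ends belonged to chromosomes 4, 11, 7, 2 and 15, which together held 9076 peaks, or 52.0% of all peaks at the ends. The chromosome 4 end held 746 peaks per Mb, against 261 in the rest of that chromosome (ratio 2.86, 2.74 to 2.99). Chromosome 2 had 576 against 251 (ratio 2.30, 2.19 to 2.41), and chromosome 7 had 583 against 272 (2.15, 2.04 to 2.25). At the end of chromosome 11 the density was 671, against 327 (2.05, 1.96 to 2.14). These 4 windows had a ratio of at least 2, which 10.3% of other windows reached. Chromosome 15 followed with 449 against 244 (1.84, 1.74 to 1.95). Chromosome 16 had 310 against 194, chromosome 9 had 339 against 266, chromosome 10 had 269 against 215 and chromosome 5 had 351 against 286.

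The sparsest ends were those of chromosomes 18, 17 and 3. Chromosome 18 held 75.7 peaks per Mb at its end, against 212 in the rest (ratio 0.356, 0.311 to 0.406). Chromosome 17 had 83 against 305 (0.273, 0.240 to 0.309), and chromosome 3 had 85 against 171 (0.498, 0.438 to 0.563). A ratio of at most 0.5 was found in 28.8% of other windows. Chromosome 13 had 124 against 207, chromosome 12 had 152 against 226, chromosome 8 had 206 against 265, chromosome 14 had 163 against 192 and chromosome 19 had 228 against 267. On chromosomes 1 and 6 the interval of the ratio held 1, with 189 against 197 and 214 against 210. The densest end held 9.86 times the peaks per Mb of the sparsest, and other windows of the same length ran from 49.3 to 935 peaks per Mb.

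Set among all windows of their own chromosome, no end was the densest and none the sparsest. The ends of chromosomes 4, 7 and 11 had rank 3 of 51, 47 and 39 windows. Over all other windows the median was 185 peaks per Mb, with 63.4 and 581 at the 5th and 95th percentiles. The ends of chromosomes 4, 7 and 11 exceeded the 95th percentile, and none fell below the 5th. Chromosome 18 came closest to the low side, ranked 28 of 29 windows on its chromosome.

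Within the windows, density fell toward the tip. Summed over chromosomes, it was 411 peaks per Mb (402 to 421) between 2 and 3 Mb from the end, 290 (282 to 297) between 1 and 2 Mb and 217 (210 to 224) in the last Mb. The last Mb was below the rest of the autosomes, with a ratio of 0.910 (0.882 to 0.938), and below the Mb between 2 and 3 Mb from the end on 15 of 19 chromosomes. In bins of 250 kb the lowest value, 195 (183 to 208), belonged to the outermost bin. Over the 12 bins up to 3 Mb, density rose at every step inward. On chromosome 14 the 3 values from the tip inward were 78, 108 and 302 peaks per Mb. Chromosome 9 had 107, 317 and 592, and chromosome 4 had 510, 837 and 891. The opposite order was found on chromosome 7, with 699, 581 and 470, and on chromosome 13, with 216, 81 and 75. On chromosomes 17 and 18 the last Mb also held more than the next ones, at 95 and 114, against at most 82 in the other 2 Mb of either window.

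**Figure D2:**
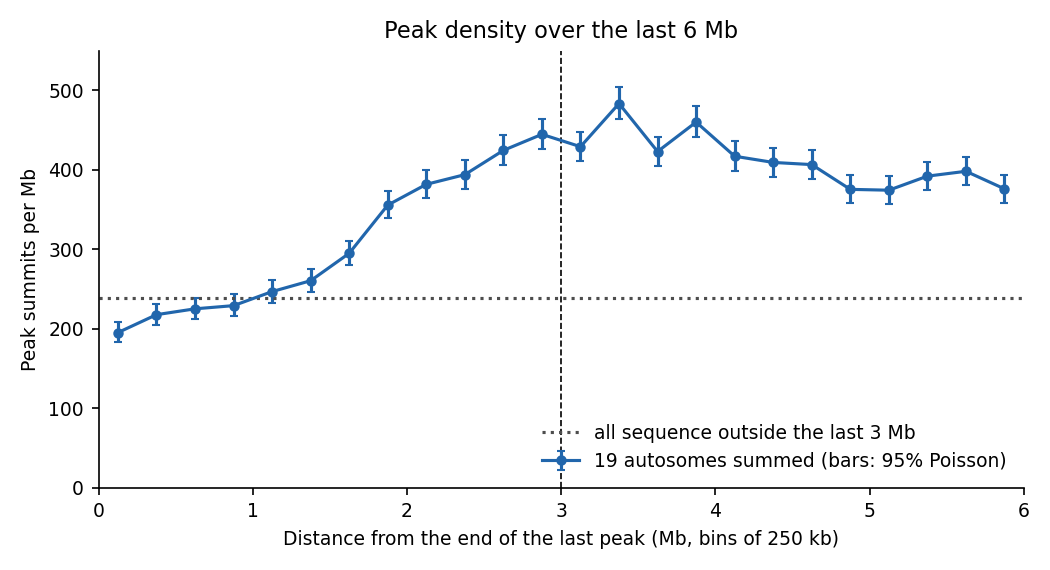
Peak summits per Mb in bins of 250 kb against the distance from the end of the last peak, summed over 19 autosomes, with 95% exact Poisson intervals. The values rise from 195 at the tip to 445 just inside the 3 Mb boundary (dashed line) and cross the 238 of the remaining sequence (dotted line) at about 1 Mb.

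The 3 Mb boundary was not an edge in the data. The bin just inside it held 445 peaks per Mb (426 to 464) and the bin just outside held 429 (411 to 448). The last peak inside and the first outside on each chromosome had median folds of 3.77 and 4.0 and median widths of 181 and 195 bp. From 3 to 10 Mb the density was 409 (405 to 412), so the end windows held 0.748 (0.736 to 0.761) of the density of the stretch next to them. They were the sparser of the 2 stretches on 16 of 19 chromosomes, and chromosomes 2, 4 and 7 were the exceptions. On 17 chromosomes the stretch from 3 to 10 Mb was denser than the sequence below the end window as a whole, of which it is a part. This stretch was chosen after the profile was seen.

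**Figure D3:**
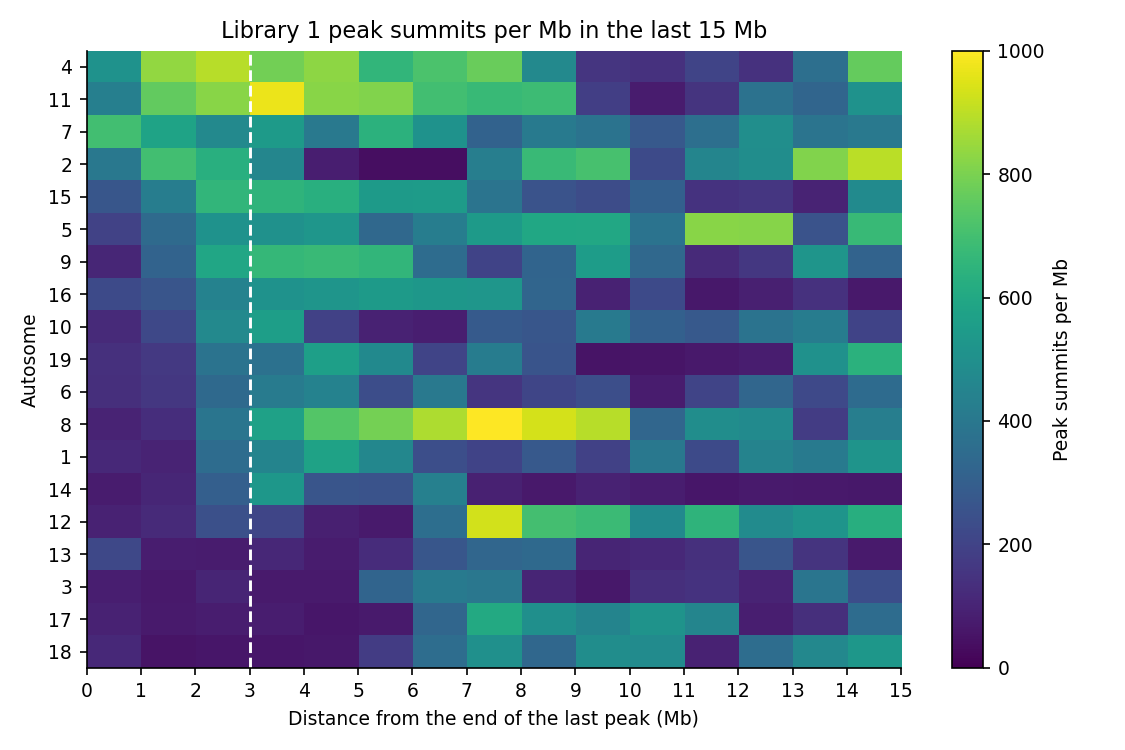
Peak summits per Mb in bins of 1 Mb over the last 15 Mb of each autosome, with the tip at the left and chromosomes ordered by the density of the last 3 Mb (left of the dashed line). In 15 of 19 rows the last Mb is lower than the Mb from 2 to 3, and bright blocks of chromosomes 8 and 12 lie beyond 3 Mb, with up to 997 and 931 peaks per Mb.

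Protein-coding genes were also denser at the ends, and ends with more genes tended to hold more peaks. The end with the most genes, chromosome 10 at 43 per Mb, was an exception, with 269 peaks per Mb. The end windows held 718 genes, or 12.6 per Mb, against 8.45 in the rest, a ratio of 1.49 (1.38 to 1.61). Gene density and peak density were both above the rest of the chromosome on 9 of the autosomes and both below it on 8. The 2 that differed were chromosome 5, with more peaks but 7 genes per Mb against 8.39, and chromosome 13, with fewer peaks but 7.33 genes per Mb against 7.05. Over the 19 ends, which share 1 library, Pearson's r between the 2 densities was 0.64 and Spearman's rho was 0.83. Leaving out the ends with the most extreme gene densities, 10 and 15, gave an r of 0.91 and a rho of 0.89. The 774 other windows gave an r of 0.61 and a rho of 0.76. Inside the ends the order of the densities parted: the last Mb had the most genes, 13.8 per Mb with and 12.2 without olfactory receptor genes (11.4 between 2 and 3 Mb, where there are none), and the fewest peaks.

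A line fitted to the 774 other windows gave 134 peaks per Mb at no genes and a rise of 12.4 peaks per gene, with residuals of SD 131 peaks per Mb. Of the 19 end windows 7 lay above that line, as did 37.5% of the other windows. Above it by more than 1 SD were chromosomes 4, 7, 11 and 2, by 323, 268, 190 and 182 peaks per Mb, a distance that 13.7% of other windows exceeded. Chromosome 10 lay 397 below it, with 43 genes per Mb, and 6.46% of other windows lay more than 1 SD below. Without olfactory receptor genes the count above the line was again 7, and the chromosome 10 end, then at 23.7 genes per Mb, had a residual of -205.

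**Figure D4:**
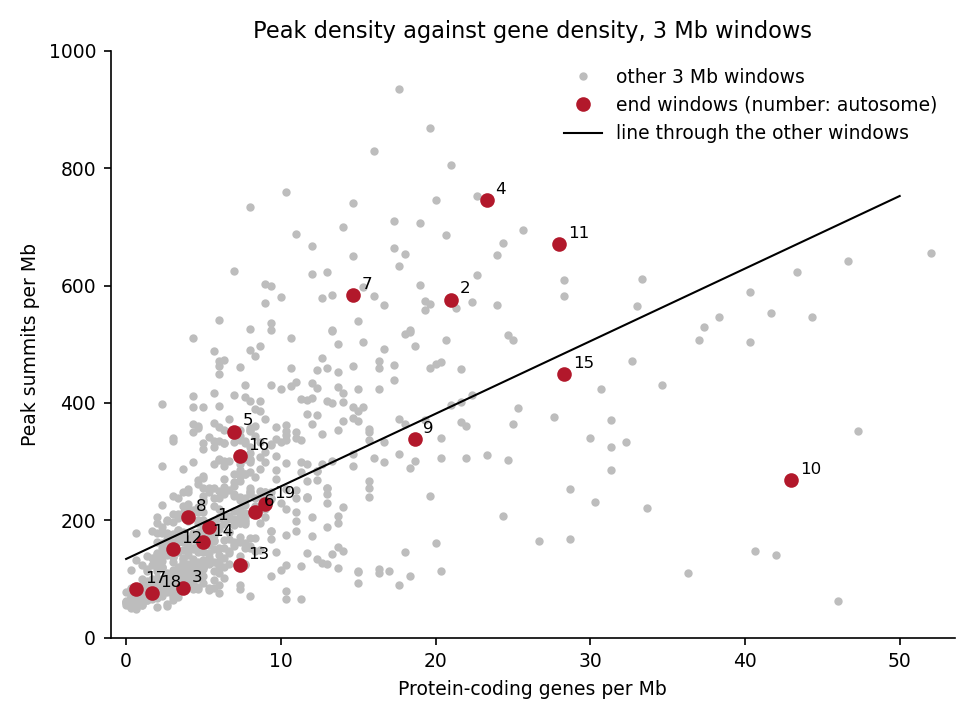
Peak summits per Mb against protein-coding genes per Mb in windows of 3 Mb, with the 19 end windows in red and numbered by autosome, the 774 other windows in grey and the line fitted to the grey points. The ends of chromosomes 4, 7, 11 and 2 stand above the line, and that of chromosome 10 stands far below it.

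The peaks at the ends were slightly wider and had slightly lower folds than those elsewhere. Median width was 211 bp (quartiles 152 and 327, range 119 to 3165), against 201 bp (148 and 306) in the rest. Peaks of 500 bp or more made up 9.39% of the peaks at the ends and 7.76% of the others. The end median exceeded that of the rest on 10 of 19 chromosomes, where 33.5% of other windows did so. Over the 19 ends, which share 1 library, r between density and median width was 0.88 and rho was 0.63. In the 5 densest ends medians ran from 222 to 242.5 bp, and in the other 14 from 179 to 218 bp. Peaks covered 23.1% of the bases at the chromosome 4 end and 1.93% at the chromosome 17 end, against 4.11% to 8.74% in the rest of the autosomes. The median distance between neighbouring summits was 910 bp on chromosome 4 and 8287.5 bp on chromosome 17. The widest peak at an end, of 3165 bp, lay in Lama5, which encodes a laminin chain of basement membranes, at chromosome 2, 180177143 to 180180307, with a fold of 5.39.

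Median fold was 3.77 at the ends (quartiles 3.23 and 4.58, range 1.65 to 9.18) and 3.90 elsewhere (3.27 and 4.58). The difference of -0.13 was smaller than the step of 0.269 that 1 extended read makes at the genome-wide background. It was 0 among peaks called at that background. Median fold was lower at the end on 12 autosomes, higher on 6 and equal on 1, and 34.4% of other windows had a lower median than the rest of their chromosome. It was highest at the sparse end of chromosome 18, at 4.31 against 3.91. All 5 of the densest ends had a median of 3.77. Median pileup was 14 reads at the ends and 15 elsewhere. The share of peaks called at the genome-wide background of 2.71 reads was 63.8% at the ends and 66.0% elsewhere, from 59.1% on chromosome 15 to 78.0% on chromosome 18.

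**Figure D5:**
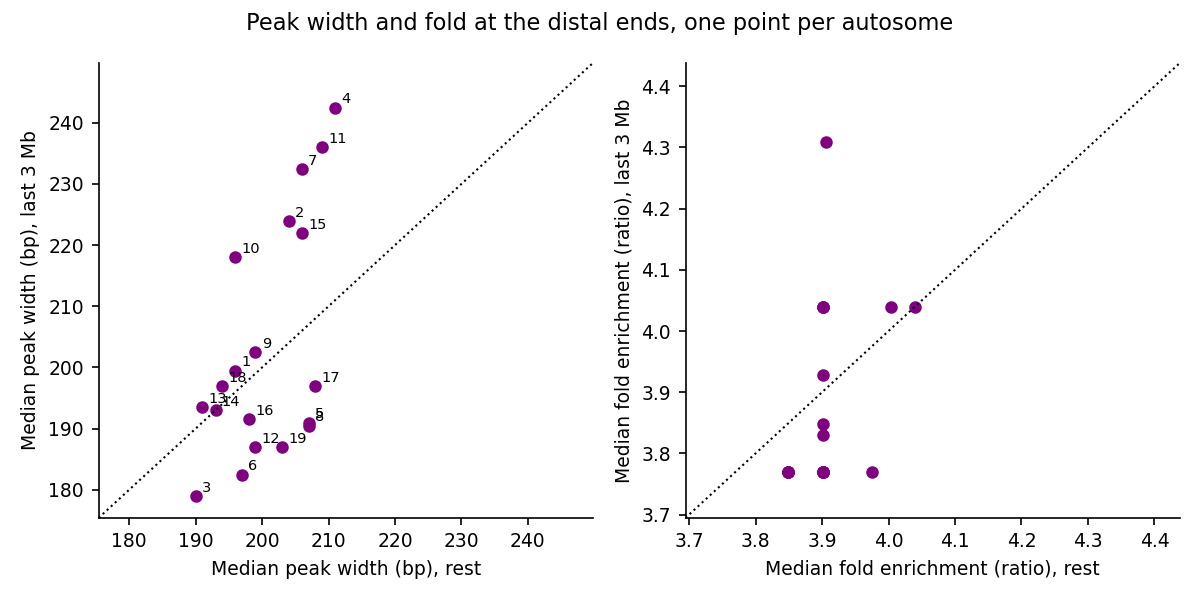
Median peak width (left, bp, points numbered by autosome) and median fold enrichment (right) in the last 3 Mb against the rest of each autosome, with the line of equality dotted and some points coinciding on the right. The ends of chromosomes 4, 11, 7, 2 and 15 have the widest peaks, at 222 to 242.5 bp, and a median fold of 3.77, which other ends share.

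A single end had a high local background. On chromosome 13, 13 peaks between 119596357 and 119617476 were called against more than 5 times the genome-wide background, up to 68.0 reads, and no other end had such a peak. The mean background of the chromosome 13 end was 4.09 with these peaks and 3.04 without them. Its density without them was 120 peaks per Mb. Library 2 had 3 peaks in the same place, within Tmem267, with folds of 2.20, 5.93 and 3.69, and 1 of them overlapped a library 1 peak. A further 5 of its 11 peaks at the ends lay together on chromosome 9, between 124256365 and 124257832.

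Genes at the ends had a peak about as often as genes elsewhere, and more often once olfactory receptor genes were left out. A peak lay within 1 kb of either annotated end of 608 of 718 genes (84.7%, 81.8 to 87.2), against 82.2% (81.7 to 82.7) of genes in the rest. Leaving out olfactory receptor genes, the shares were 91.1% (88.6 to 93.1) and 85.2% (84.6 to 85.7). All 44 genes at the chromosome 7 end had such a peak, as did 69 of 70 on chromosome 4 and 81 of 84 on chromosome 11. On chromosome 13 the number was 14 of 22, and on chromosome 10 it was 68 of 129. In the sum over chromosomes, summits lay inside protein-coding genes in 56.8% (56.0 to 57.5) of cases at the ends and 54.5% elsewhere. Genes covered 44.9% of the bases at the ends and 40.8% elsewhere. The share of summits inside genes was higher at the end on only 9 of 19 autosomes. Single ends ran from 2.01% on chromosome 17 to 74.4% on chromosome 14. Summed density at the ends was higher both inside genes, at 387 per Mb (379 to 394) against 319, and outside them, at 240.3 (235 to 246) against 183.

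Summed over chromosomes, promoters held summits at a similar rate at the ends and elsewhere. Promoters of chromosome 18, whose end is the sparsest, were not analysed here. Of 695 promoters with a sequence at the ends, 149 (21.4%, 18.4 to 24.7) held a summit, against 22.9% (22.3 to 23.5) of 19386 elsewhere, and the intervals overlap. Single ends ran from 5.56% of 18 promoters on chromosome 13 to 55% of 20 on chromosome 1. The chromosome 10 end, with the olfactory receptor genes, supplied 122 of the 695, and 11 of these (9.02%) held a summit. The share without that end was not analysed here. Median GC content of the promoters was 58.3% at the ends and 56.7% elsewhere. At the ends, promoters with a summit had a median GC of 60.3% and those without had 57.3%. Along the direction of the gene, density peaked in the first 250 bp after the start, at 961 per Mb (821 to 1118) at the ends and 997 (969 to 1026) elsewhere. The telomere hexamer TTAGGG, on either strand, was found in 73 of 695 promoters at the ends and in 2029 of 19386 elsewhere. Over all 31396 autosomal promoters of the table, coding or not and the ends included, the share was 10.6%.

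A peak of the highest fold of its window lay in a protein-coding gene at 4 of the 19 ends, those of chromosomes 2, 6, 15 and 16, and on chromosome 2 a peak outside genes had the same fold. In each end, the gene-borne peak of highest fold had a fold between 5.12 and 8.89. The highest, in Gtsf1 on chromosome 15, is the promoter peak shown above. Next came Ogfod3 on chromosome 11, where a peak at 121181479 to 121181976 reached 8.85, with 45 stacked reads (32.8 to 60.2) over a local background of 4.20. Tm9sf2 on chromosome 14 had 8.35 (122121504 to 122121706). Dok6, an adaptor of receptor tyrosine kinases on the sparse end of chromosome 18, had 8.08 (89615792 to 89616350). Hhat, the acyltransferase that attaches palmitate to Hedgehog proteins, had 7.81 on chromosome 1 (192766711 to 192766949). Trp73, a member of the p53 family, had 7.27 on chromosome 4. The lowest, 5.12 in Gm20939, was the last peak of chromosome 17. Other such genes were Topaz1, Fry, Bicd1, B3galt5, Zfp512b, Rdh9, Rapgef5, Hspa12a, Lrrc7, Slc35f3 and Osbpl5, with folds from 6.73 to 7.90.

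Long genes carried very unequal numbers of peaks. Among the 25 genes of at least 200 kb, Prdm16, a transcription factor of brown fat and palate development, held 288 summits in 321 kb of chromosome 4, or 897 per Mb. Cdh4, which encodes R-cadherin, held 358 in 457 kb of chromosome 2 (783 per Mb). Rptor, the defining subunit of the mTORC1 kinase complex, held 219 on chromosome 11 (738 per Mb), and Shank2, a postsynaptic scaffold, held 308 on chromosome 7 (688 per Mb). Far fewer were found in Lrrc7, a postsynaptic protein gene, which held 21 in 495 kb of chromosome 3 (42.4 per Mb). Dok6 held 31 in 477 kb (65.0 per Mb), and Fgf14, which modulates neuronal sodium channels, held 46 in 703 kb of chromosome 14 (65.4 per Mb). Best folds did not follow this order, at 6.73 in Prdm16 and 8.35 in Fgf14. Among genes of at least 10 kb the most summits per kb were in Cep131, a centrosome protein gene, with 31 in 22.4 kb of chromosome 11. Zfp651, Chrna4, Gaa and Myo1a followed, at 1.29 to 1.20 per kb, where the median of 408 such genes was 0.419.

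Of the 27 listed transcription regulators at the ends, 26 (96.3%) had a peak within 1 kb of a gene end. Among genes other than olfactory receptor genes the share was 91.1% at the ends and 85.2% in the rest. With olfactory receptor genes kept, it was 82.2% in the rest. Of the 27, 9 are neighbouring genes of the HoxC cluster. The HoxC cluster on chromosome 15, 102921131 to 103036856, whose genes set position along the body axis, held 58 summits in 0.116 Mb, or 501 per Mb (381 to 648), against 447 in the remainder of that window. Best folds at its genes ran from 3.50 at Hoxc11 to 5.39 at Hoxc4 and Hoxc5. Trp73 had 5.97 at an end and 77 summits in its body, and Ski, a repressor of TGF-beta signalling, had 5.39 and 54. The lowest was 2.31 at Irf2bp2 on chromosome 8. Zic2 and Zic5, regulators of forebrain and neural crest on chromosome 14, had 3.23 and 4.59. Emx2, which patterns the cerebral cortex, had no peak at an end and 2 summits in its body, on chromosome 19.

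Among 24 signalling and adhesion genes, 23 had such a peak, beside 91.1% of all genes at the ends other than olfactory receptor genes. Itga5, the fibronectin receptor subunit, and Lama5 had best folds of 5.39 at an end. The growth factor genes Fgf3, Fgf4 and Fgf15 lie together on chromosome 7 and had 4.58, 3.91 and 3.50, and Fgf10, a ligand of lacrimal gland and limb budding on chromosome 13, had 4.58. Igf2, an imprinted growth factor gene, had 4.59 and 13 summits in its body. Nrp1, a receptor for semaphorins and VEGF, had 3.67 and 9 summits in 147 kb of chromosome 8. Wls, needed for Wnt secretion, spans the last peak of chromosome 3 and had 2.96 and 2 summits in 99.0 kb. The lowest, 2.69, was at Socs6 on chromosome 18. Agrn, which organises the neuromuscular junction, had no peak at an end but 23 summits in its body.

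Of 13 genes listed as housekeeping, 11 (84.6%) had a peak at a gene end. That share was close to the 84.7% of all genes at the ends and the 82.2% elsewhere. Leaving out olfactory receptor genes, the share at the ends was 91.1%. The list was broad and took in the cell cycle gene Ccnd1 and the DNA repair gene Brca2. These 2 had its highest folds at an end, 5.51 and 5.66. The ribosomal protein gene Rps21 and the actin gene Actg1 had no such peak. Immune genes had a peak in 8 of 13 cases (61.5%), beside the same shares of all genes. The complement receptor genes Cr1l and Cr2 on chromosome 1 had folds of 5.39 and 5.12, and the interferon-induced Isg15 had 2.32.

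Keratin and olfactory receptor genes, on different chromosomes, differed in how many had a peak. Keratin genes, which encode filament proteins of epithelia and hair, occupy 101348315 to 102032026 on chromosome 15. They are type II genes except for the type I gene Krt18 at the distal edge. All 26 had a peak at an end, with best folds from 3.77 at Krt77 to 5.92 at Krt80 and Krt76 (median 5.16). All 27 keratin genes of the list that lie elsewhere also had one. Most other genes did too: 77 of all 85 genes (90.6%) at the chromosome 15 end had such a peak. Leaving out olfactory receptor genes, the shares were 91.1% over all ends and 85.2% in the rest. The keratin stretch of chromosome 15 held 441 summits, or 645 per Mb (586 to 708), against 392 in the remainder of the window. Its median width was 250 bp. Olfactory receptor genes, which encode odorant receptors of the nasal epithelium, occupy 128989914 to 130211128 on chromosome 10. There 7 of 58 genes (12.1%) had such a peak, against 29.3% of the 1045 olfactory receptor genes in the rest of the autosomes. That stretch held 110 summits per Mb (91.9 to 130.0), and the remainder of the chromosome 10 window held 378. These stretches, the HoxC cluster included, were chosen after their values were seen.

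The proximal ends of the autosomes, the first 3 Mb from the first peak, had nearly the same gene density, 12.5 per Mb, but fewer peaks. They held 222 per Mb (218 to 226), from 87.3 to 561 over chromosomes, and the distal ends held 1.38 (1.35 to 1.41) times as many. The distal end was the denser one on 13 of 19 chromosomes. Median width and fold at the proximal ends were 204 bp and 3.90. GC content and mappability of the windows were not analysed here.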

How the data were processed

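Versions listed by the submitters are Bowtie 1.1.2, MACS2 2.1.0, Trimmomatic 0.33 and bcl2fastq 2.17, with the builds mm10 and hg38 (per the submitters' processing notes, which give no roles). Each library has its own peak list in narrowPeak format, per the file headers. The authors deposited a score for each peak as written by their peak caller, which is not used here. The authors also deposited the fold enrichment as a ratio, p and q on a −log10 scale, and the offset of the summit. Control and settings are not given in the sources used here.

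Summits in the last 3 Mb before the end of the last peak of each autosome were counted. The rest ran from the first peak to the window. Pileup and background were solved from the fold and the −log10 p of each deposited peak, assuming that the caller added 1 to both. All peaks gave a whole pileup within 0.002 on the −log10 scale (largest mismatch 0.000113). Genes were placed by midpoint with the RefSeq table of GRCm38.p6. Of 718 genes at the ends, 574 had a promoter sequence. Python 3.11.15, numpy 2.4.6, scipy 1.17.1 and pandas 2.3.3 were used, and the calculations were tested on simulated data. The precision of a count is set by the number of peaks, and read depth is known only through the pileups (median 14 and 15 reads).

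Members and lists were chosen with earlier results of these data known. Named genes were, by rule, the gene-borne peak of highest fold at each end (ties by coordinate), the 5 genes with most summits and the 5 with most per kb among genes of at least 10 kb, list members with high and low folds, and the 4 promoter summits of highest fold outside chromosome 18. Some items that the rule names are not reported here. Other named genes were chosen after their values were seen. Alternatives changed the window, the peak threshold, the merging of peaks, the gene set and the chromosomes included.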

Additional observations from a re-analysis of the deposited data

Results flagged for a closer look

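Library 2 enters no comparison above, yet 11 of its 118 autosomal peaks (9.32%) lay in the last 3 Mb of an autosome. The 57 Mb make up 2.37% of the autosomal span. Of these peaks, 5 lay together on chromosome 9 (124256365 to 124257832) and 3 on chromosome 13 (119596955 to 119598619), so they are not independent. The other 3 lay on chromosomes 2, 9 and 15, the last in Copz1, with folds of 9.29, 14.3 and 9.78.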

How the results depend on the processing

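Every result rests on library 1, so no replicate could be left out, and no paired analysis was possible because there is a single group. The window length changed the direction of the summed density ratio, which was 0.903 with windows of 1 Mb and 1.50 with 5 Mb. It was 1.21 with −log10 q of at least 5, 1.13 with peaks within 1 kb merged and 1.24 for peaks called at the genome-wide background. Leaving out 1 autosome at a time gave 1.19 to 1.35. The median ratio over chromosomes was 0.583 with 1 Mb and 1.48 with 5 Mb, and ran from 0.989 to 1.12 without 1 autosome. The number of denser ends, 10 of 19, was 7 with 1 Mb, 14 with 5 Mb, 13 with merged peaks and 9 or 10 otherwise. The width difference of 10 bp was 23 bp with −log10 q of at least 5 and 46 bp with merged peaks, where width includes the gaps, and 7 to 12 bp without 1 autosome. The fold difference of -0.13 was -0.053 with 1 Mb, -0.028 with −log10 q of at least 5, and 0 with merged peaks and for peaks at the genome-wide background. It stayed at -0.13 whichever autosome was left out. Folds take stepped values, so such a median can stay the same when peaks are dropped, and this says little about stability. The gene density ratio was 1.63 with 1 Mb, 1.37 with 5 Mb and 1.27 for all annotated genes. The difference in the share of genes with a peak at an end, 2.47 points (-0.37 to 5.03), was 5.91 points without olfactory receptor genes. Apart from the autosomes left out, 27 of 43 alternative values stayed within the interval of the value reported or, for counts of chromosome ends, within 1.5 times of it. For the median ratio that interval, 0.671 to 1.84, was the spread over the 19 chromosomes. It is wide, is not counting error and does not treat a move to 1.48 as a change. The intervals for width (8 to 13 bp), fold (-0.131 to -0.120) and shares held the rest fixed. The count of 27 is therefore no measure of stability. The alternatives on the genome-wide background, the receptor genes and the autosomes left out were chosen after seeing the data. The cause was not tested.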
